A study of Mus musculus with 9 samples.

Results

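Interferon response and antigen presentation genes were followed in liver stromal cells sorted from mice at 3 stages around birth. A list of 38 genes was looked up in the deposited array values, and each gene was read from 1 probe set, the one annotated to that gene alone that had the highest mean over 9 arrays. Of the 38, 35 were kept among 19938 genes that could be measured in this way. They comprise 4 interferon receptor chains, 7 transcription factors of the response, 14 interferon-stimulated effectors, 8 genes of class I antigen presentation and 2 of class II. Isg15 and Gbp2 were dropped because their probe sets carry more than 1 gene symbol, and Ifi44 because no probe set is annotated to it. Nlrc5, with 19 probe sets, is given by all of them.

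Interferons are cytokines that cells release on sensing foreign nucleic acid or on immune activation. Type I interferons act through the receptor chains Ifnar1 and Ifnar2 and interferon gamma through Ifngr1 and Ifngr2, and both lead through Stat and Irf transcription factors to genes that block viral replication and raise antigen display. Class I presentation cuts cytosolic proteins in the proteasome, moves the peptides into the endoplasmic reticulum through the Tap transporter and shows them on class I molecules with beta-2-microglobulin at the surface of nearly all nucleated cells, whereas class II presentation belongs mainly to professional antigen-presenting cells.

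All animals were C57BL/6 mice of genotype Cxcl12DsRed/+, so every group carried 1 Cxcl12 allele with the DsRed red fluorescent reporter. Liver cells that were DsRed-positive and lacked the blood cell surface proteins CD45 and Ter119 were sorted from embryos at E15.5 and from pups at postnatal day 5 (P5) and postnatal day 10 (P10). Total RNA of 3 samples a stage was measured on 1 Affymetrix array each. The comparisons ask how the RNA of this Cxcl12-expressing stroma differed between the stages.

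The gate takes any liver cell outside the blood lineages that expresses Cxcl12, and the 3 samples of a stage are stated to be independent without saying whether each was 1 animal or a pool. The p-values therefore measure the spread between these arrays. In bulk RNA of this kind, a change in the share of 1 kind of cell and a change in RNA per cell cannot be told apart. The sources used here give neither scan dates nor batches. Values are log2 signals, so a difference of 1 is a 2-fold change, and the levels of different genes are not compared, because probe sets differ in brightness. Array medians ran from 6.22 to 6.45, and Pearson r between arrays, taken over probe sets that are not independent of each other, was 0.983 to 0.993 within a stage and 0.901 to 0.985 between stages.

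Markers of other cells were read beside the members. Ptprc, which encodes CD45, averaged 5.05, 5.11 and 5.10 at E15.5, P5 and P10, under percentile 30 of genes at each stage (5.69, 5.70 and 5.66). Of 16 macrophage markers, 8, 7 and 8 lay under that percentile in the order of the stages. Ptprc, Adgre1, Cd5l, Vsig4, Lyz2, Timd4 and Aif1 were among them each time. Cd68, Clec4f, Csf1r, Marco, C1qa, C1qc, Fcgr1 and Cx3cr1 were under it at no stage. The summed log2 level of the list was 88.73 to 90.26, 87.46 to 89.70 and 87.43 to 89.24. Hepatocyte markers moved with stage: their summed log2 level over 12 genes was 111.1 to 112.9 on the E15.5 arrays, 146.1 to 147.4 on the P5 arrays and 146.3 to 148.7 on the P10 arrays. The 15 stellate cell markers moved the other way, with sums of 146.4 to 149.3, 120.4 to 125.7 and 116.0 to 120.1. The 10 mesothelial markers were highest at P5, with sums of 80.19 to 81.00, 90.21 to 94.54 and 73.66 to 75.89, and 7 were called higher and 1 lower at P5 against E15.5 and 8 lower at P10 against P5. The part of these shifts in the member values was not tested.

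One array stood apart for these genes. P5 array 2 was the highest of all 9 arrays for 22 of the 35 members (62.9%), whereas it was the highest for 11.8% of all genes. It exceeded the mean of P5 arrays 1 and 3 by more than 2-fold for 15 members (42.9%), against 115 of all 19938 genes (0.577%), and on each of the other 8 arrays no member passed that mark. For P5 arrays 1 and 3 the mean of the other 2 arrays includes P5 array 2, which holds their deviations down. The median deviation of the members on P5 array 2 was 0.73, and that of all genes was 0.0. Ranked by this deviation, 2 members stood among the first 10 genes, 8 among the first 50 and 13 among the first 100. Cd74 had the largest deviation of the members (4.41), followed by Gbp3 (3.39, 10.5-fold), Ifit2 (2.20), Irf7 (2.12), Ifit3 (1.80), Ifit1 (1.79), Irf1 (1.66) and Bst2 (1.58). The deviations of the 4 receptor chains lay between -0.071 (Ifnar2) and 0.071 (Ifngr2).

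Some other genes of the same pathways were high on this array. Over 2-fold up on it were 17 of 69 other interferon-stimulated genes and 4 of 18 other class II genes (median deviations 0.57 and 0.035). So were 2 of 18 other class I genes (0.50) and 1 of 33 signalling and sensing genes (-0.0015), beside 0.577% of all genes. Among genes other than the members, chosen after their values were seen, H2-Aa and H2-Ab1, the chains of a class II molecule, deviated by 4.84 and 4.47 and held the first 2 ranks. Cxcl9 and Cxcl10, chemokines induced by interferon, deviated by 3.54 and 2.41, and the class II peptide loader H2-DMa by 3.15. H2-Aa had a log2 signal of 9.69 on P5 array 2, against 4.78 and 4.91 on P5 arrays 1 and 3. The 16 macrophage markers summed to 89.70 on this array, inside the range of the E15.5 arrays, and 0 of them were over 2-fold up. The dendritic cell markers include the member Bst2, and the other 9 summed to 50.65 on it, against 51.17 and 49.58 on P5 arrays 1 and 3, with 0 over 2-fold up. The 9 B lymphocyte markers summed to 49.74, against 51.57 and 47.96, with 0 over 2-fold up. At P5, 6 of the 10 dendritic cell, 5 of the 9 B lymphocyte and 7 of the 16 macrophage markers averaged under percentile 30 of genes. Sums of such dim markers are a weak measure of a small share of these cells. The summed level of 15 sinusoidal endothelial markers was 121.8 on P5 array 2 and 126.4 on P5 array 3, against 100.5 on P5 array 1. On P5 array 2, 2 of these 15 were over 2-fold above the mean of P5 arrays 1 and 3, Clec4g (1.76) and Lyve1 (1.28). That mean includes P5 array 3, the highest of the 3 in summed level, so the count does not measure the gap to P5 array 1. The members had a median deviation of -0.30 on P5 array 3 and -0.42 on P5 array 1. Each of these was taken against a mean that includes P5 array 2, which lowers both. They therefore do not show how the members on P5 array 3 stood against P5 array 1. Both P5 arrays 2 and 3, with E15.5 array 3 and P10 array 1, also carried signal of the Y-linked gene Eif2s3y. The part of these markers in the member values was not tested. Values without P5 array 2 therefore stand beside the P5 results that it moved most. That array was set apart on the members' own values, and leaving it out narrows their spread. Calls gained without it are therefore not independent support.

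**Figure D1:**
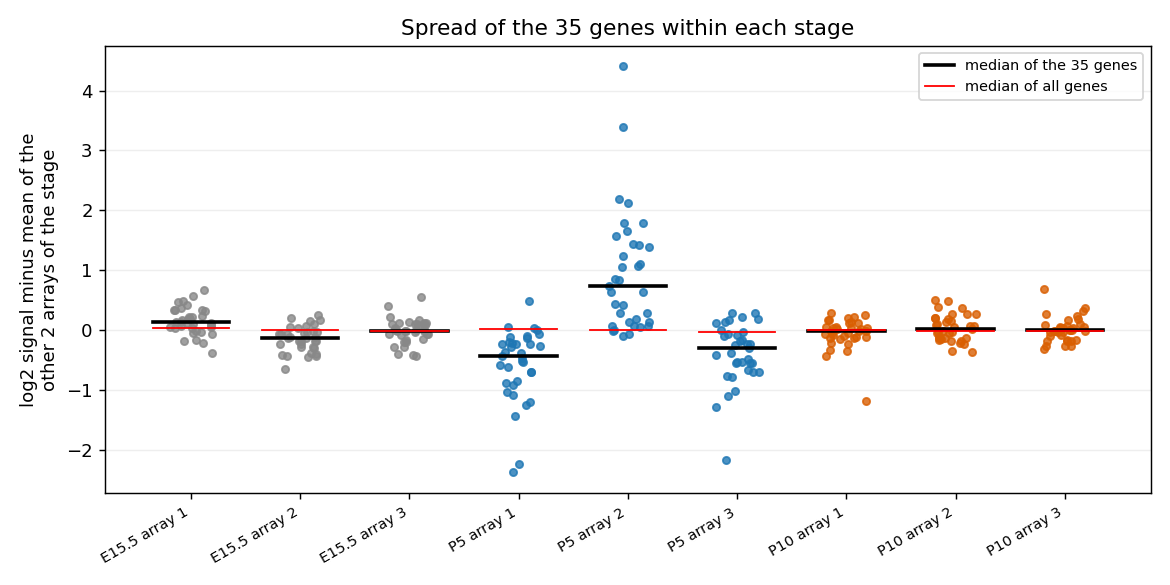
Log2 signal of each of the 35 genes minus the mean of the other 2 arrays of its stage, with 1 column of points per array, the E15.5 arrays in grey, P5 in blue and P10 in orange. Black bars mark the median of the 35 genes and red bars that of all genes, and P5 array 2 has the highest median of the 35 genes, 0.73.

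At P5, 6 of 14 interferon-stimulated effectors, the 3 immunoproteasome subunits, Irf2, Irf3, Irf8 and Stat2 were called higher than at E15.5, and the type I receptor chains Ifnar1 and Ifnar2 lower. With all arrays, 15 of the 35 members were called higher (42.9%) and 2 lower (5.71%) by limma at an adjusted p under 0.05, where 17.9% of all genes were called higher and 17.7% lower (35.6% either way). The members' median difference was 0.83 (all genes 0.029). The 3 P5 arrays lay wholly above the 3 E15.5 arrays for 18 members and wholly below for 3, beside 24.1% and 21.1% of all genes (45.2% together). Without P5 array 2, 16 were higher and 2 lower, beside 16.3% and 15.9% of all genes, and the median difference was 0.37. Stat2 and Ifit1 lost their calls in that fit, and Parp14, Tap1 and Cd74 gained them.

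At P10, the same E15.5 arrays served for comparison, so this contrast and the previous one share them. Of the 35 members, 11 were called higher (31.4%) and 5 lower (14.3%), where 20.1% of all genes were higher and 18.6% lower (38.7% either way). Of the called members 68.8% were thus higher, and 80.0% (16 higher, 4 lower) when arrays were centred on the median of all genes. The same centring moved the share of all called genes that were higher to 65.6%, beside 51.8% as deposited. With it 6085 of all 19938 genes were higher, beside 3998 as deposited. The median difference was 0.39 (all genes 0.024), and 17 members lay wholly above and 5 wholly below the E15.5 arrays, beside 27.9% and 23.8% of all genes (51.7% together). Leaving out P5 array 2 changes no P10 or E15.5 value, only the spread estimated over all stages, and then 18 members were higher and 5 lower (20.2% and 18.7% of all genes). The 7 added calls were Irf7, Irf8, Ifit1, Ifit3, Bst2, Parp14 and Tap2. They follow from the narrower spread once an array picked on the members' own values is left out (SE of Irf8 0.27 with it and 0.090 without).

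Between the postnatal stages little passed. At P10 against P5, 0 members were higher and 1, Ifngr1, was lower, where 2.76% of all genes were higher and 2.89% lower (5.65% either way). The 3 P10 arrays lay wholly above the P5 arrays for 2 members and wholly below for 7, beside 10.6% and 9.66% of all genes (20.2% together). The members' median difference was -0.23 with all arrays and 0.061 without P5 array 2, so its sign rests on that array. Without it, Stat2 (0.87 ± 0.12, adjusted p = 0.0146) and Usp18 (0.67 ± 0.14, adjusted p = 0.0496) were called higher at P10 than at P5 (differences ± SE on the log2 scale), and 1.74% of all genes were called higher and 2.01% lower.

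**Figure D2:**
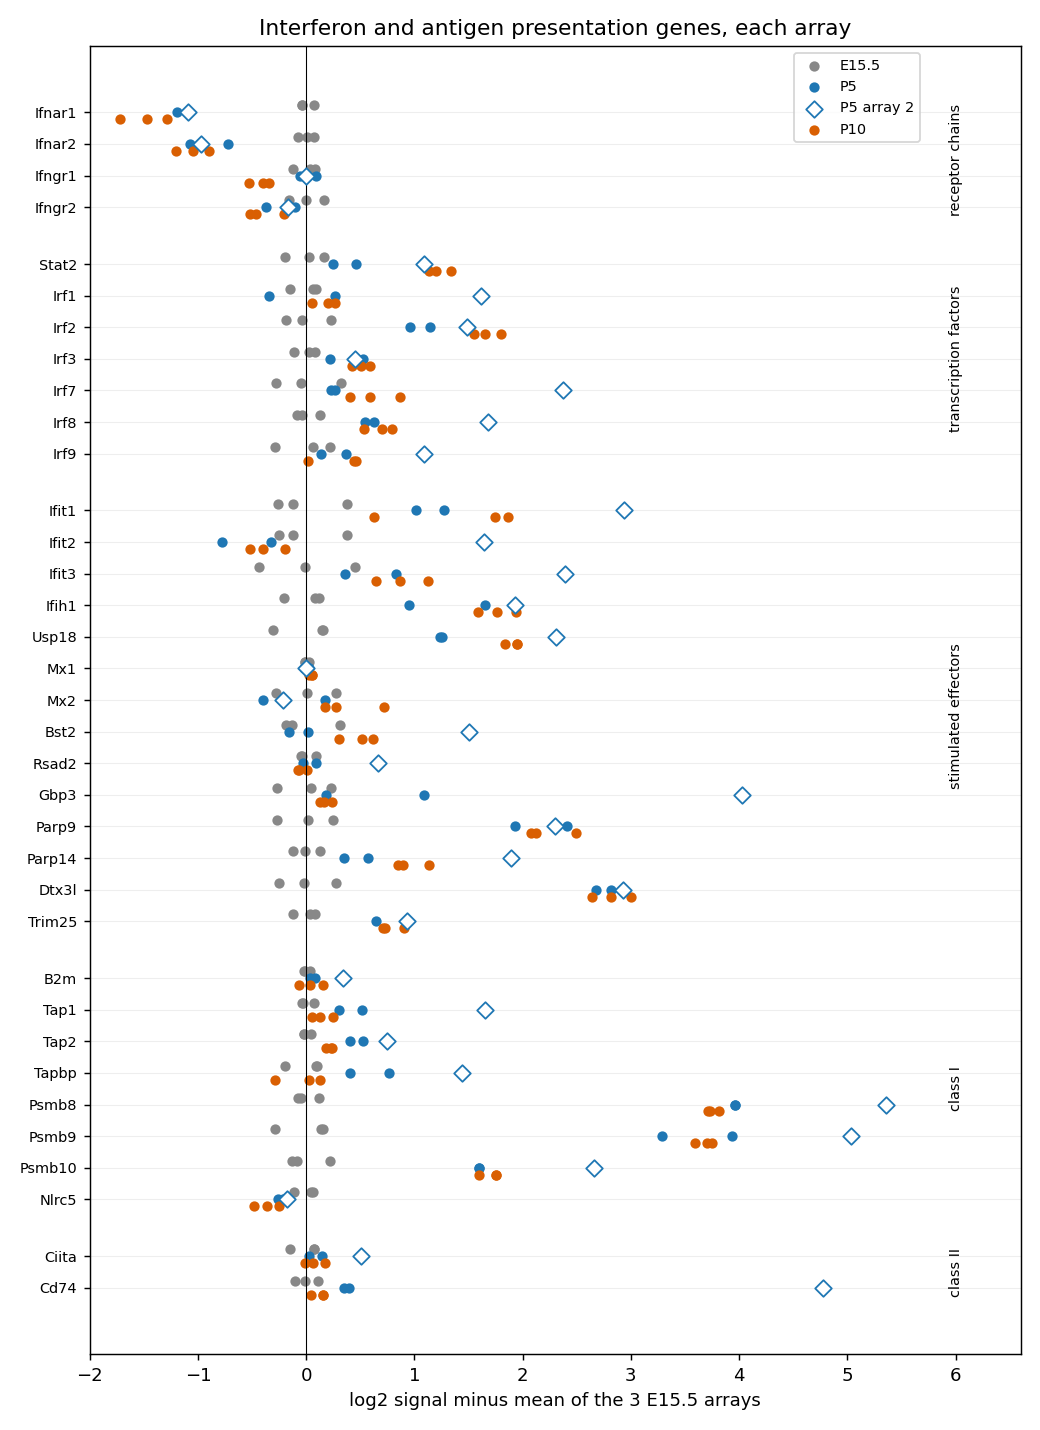
Log2 signal of each of the 35 genes on each array minus the mean of the 3 E15.5 arrays of that gene, grouped by role, with E15.5 in grey, P5 in blue (P5 array 2 as an open diamond) and P10 in orange. Psmb8, Psmb9, Dtx3l and Parp9 lie to the right on all 6 postnatal arrays and Ifnar1 and Ifnar2 to the left, while for Gbp3, Cd74 and Ifit2 the diamond lies far from the other P5 arrays.

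**Figure D3:**
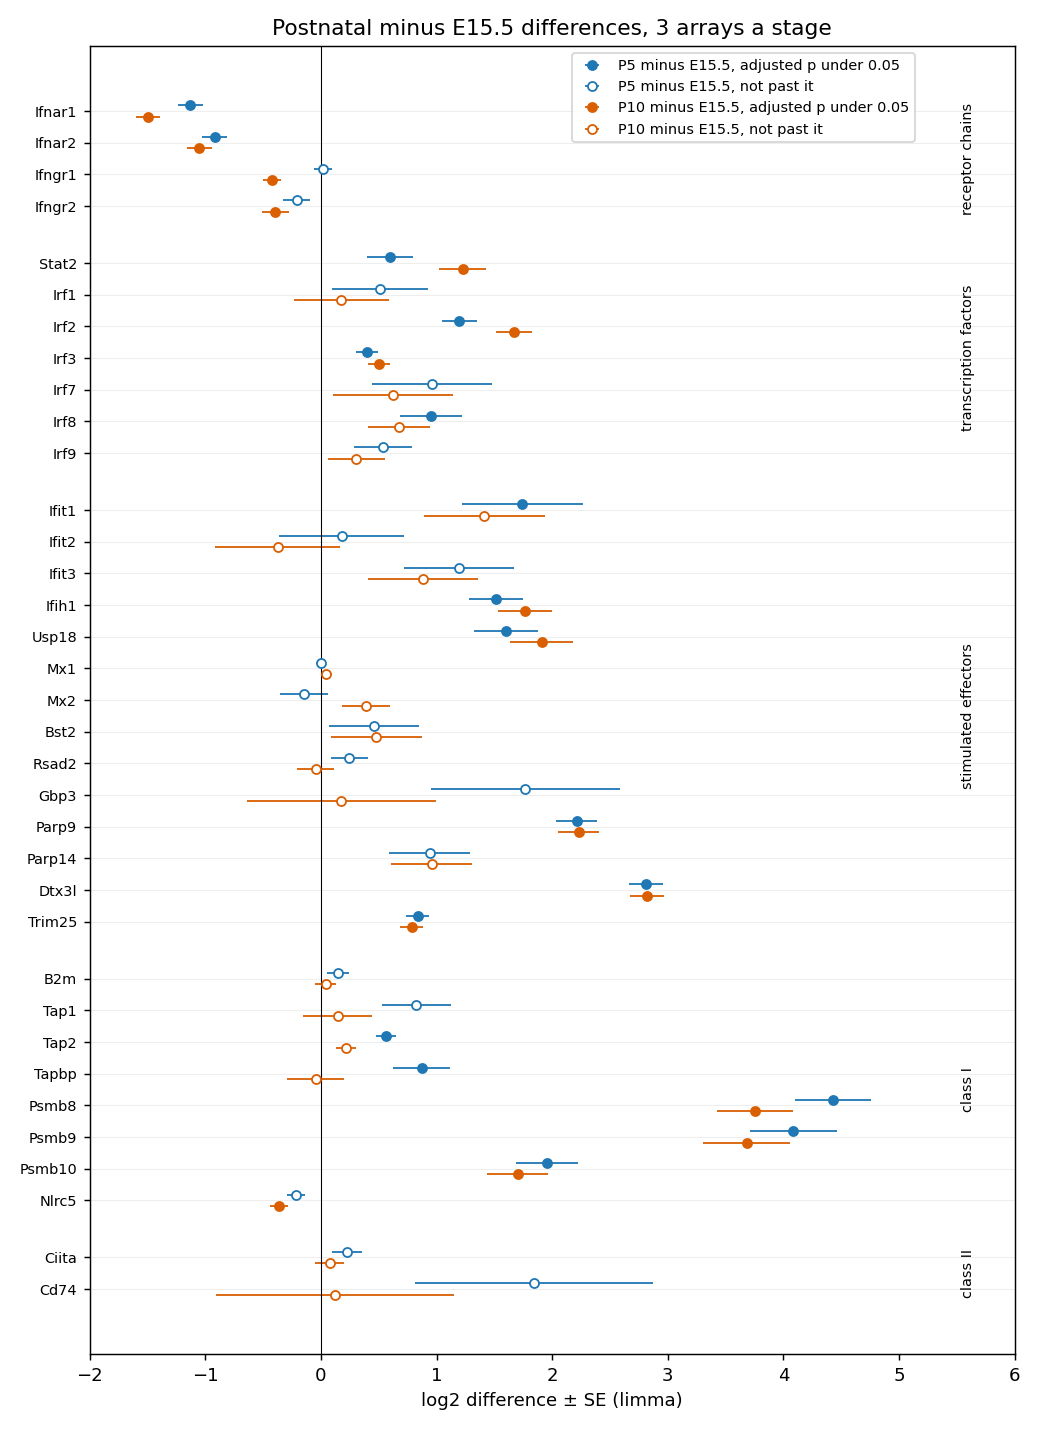
Differences of P5 minus E15.5 (blue) and P10 minus E15.5 (orange) with their standard errors from limma, 3 arrays a stage, for the 35 genes grouped by role. Filled points passed an adjusted p under 0.05 and open ones did not, and the widest bars belong to the genes raised on P5 array 2, such as Cd74 and Gbp3.

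Promoter sequence was read for the members whose start sites are in a RefSeq table of mouse build GRCm38.p6. It held 31 windows of 300 bases (250 before to 50 after a start site) for 26 of the 35 members. Usp18, Tap2, Parp9, Ciita, Mx2, Cd74, Mx1, Nlrc5 and Parp14 have no entry. Each window was searched on both strands for the core of the interferon-stimulated response element (ISRE), a site of Irf factors, written GAAA, any 2 bases and GAAA, and for the gamma-activated site (GAS) of Stat dimers, written TTCNNNGAA. The ISRE core was in 9 of the 31 windows, those of B2m, Bst2, Gbp3, Ifih1, Ifit1, Ifit3, Irf2, Rsad2 and Stat2, and in 3.44% of all 32851 windows of the table. The GAS letters were in 8, those of Bst2, Ifit2, Ifnar1, Ifnar2, Irf1, Irf2, Irf8 and Psmb8, and in 8.3% of all windows. Bst2, where they overlap, and Irf2 held both, as did 0.454% of all windows.

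Calls were found among members with and without either motif. Of the 9 genes with an ISRE core, 4 were called higher at P5 and 3 at P10 against E15.5, and 4 were over 2-fold up on P5 array 2. Of the 17 with a window but no such core, 8 were higher and 2 lower at P5, 6 higher and 4 lower at P10, and 8 were over 2-fold up on P5 array 2. Of the 8 with the GAS letters, 3 were higher and 2 lower at P5, 2 higher and 2 lower at P10, and 5 were over 2-fold up on that array. Of the 18 without them, 9 were higher and 0 lower at P5, 7 higher and 2 lower at P10, and 7 over 2-fold up on that array. Of all genes, 17.9% were higher and 17.7% lower at P5, 20.1% and 18.6% at P10, and 0.577% were over 2-fold up on that array. No test was run on these counts, a match is not a shown binding site, and a window without one says only that the letters are not in it.

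The receptor chains were the only role group with calls on the lower side alone. At P5, 0 were higher and 2 lower of 4, and at P10 0 were higher and 4 lower, beside 17.7% and 18.6% of all genes lower. Ifnar1, the first chain of the type I receptor, had log2 signals of 9.23, 9.12 and 9.11 on the E15.5 arrays, 8.06, 8.06 and 7.96 on the P5 arrays and 7.68, 7.43 and 7.87 on the P10 arrays. The stages did not overlap, and each later one was lower. The difference was -1.13 ± 0.11 at P5 (2.19-fold lower, adjusted p = 6.1e-05) and -1.49 ± 0.11 at P10 (2.82-fold lower, adjusted p = 8.16e-06). P10 minus P5 was -0.37 ± 0.11 and was not called (adjusted p = 0.0937), but leaving out P10 array 3 gave a call (-0.47, adjusted p = 0.0399). Ifnar2, the second chain, had 10.65, 10.50 and 10.59 at E15.5, 9.51, 9.61 and 9.86 at P5 and 9.68, 9.37 and 9.53 at P10. Both postnatal stages lay below E15.5 and overlapped each other. It fell by 0.92 ± 0.11 at P5 and by 1.05 ± 0.11 at P10.

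The chains of the interferon gamma receptor were called lower at P10 and not at P5. Ifngr1, which binds the ligand, had 8.60, 8.44 and 8.64 at E15.5, 8.51, 8.56 and 8.65 at P5 and 8.21, 8.03 and 8.16 at P10. The E15.5 and P5 arrays overlapped, and all P10 arrays lay below both. P10 minus E15.5 was -0.42 ± 0.078 (adjusted p = 0.00236) and P10 minus P5 -0.44 ± 0.078 (adjusted p = 0.0165), the single P10 against P5 call in the list. It ended without P10 array 2 (-0.39, adjusted p = 0.0627). Without P5 array 2 it stood at -0.44 ± 0.092 (adjusted p = 0.0483). Ifngr2, the signalling chain, differed by -0.21 ± 0.12 at P5 (adjusted p = 0.214) and -0.39 ± 0.12 at P10 (adjusted p = 0.0281). The P10 call ended in 4 of 9 fits that left out 1 array (E15.5 arrays 1 and 3, P10 arrays 2 and 3, adjusted p from 0.0703 to 0.098) and under both centrings of the arrays (0.0674 and 0.0834).

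Ifnar2, Ifnar1 and Ifngr2 lie in a row on chromosome 16 in the RefSeq gene table of build GRCm38.p6, with only Il10rb between the first pair. Il10rb, a shared chain of the interleukin-10 and type III interferon receptors, was in the wider signalling list and fell as well, by 0.51 ± 0.16 at P5 and 1.74 ± 0.16 at P10 against E15.5. Its P10 minus P5 difference was -1.23 ± 0.16 (adjusted p = 0.0047). All 4 neighbours were thus lower at P10 than at E15.5, by 0.39 to 1.74, as were 18.6% of all genes.

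Of the 7 transcription factors, 4 rose at P5 and 3 at P10 against E15.5 (57.1% and 42.9%, beside 17.9% and 20.1% of all genes). None fell, beside 17.7% and 18.6% of all genes. Irf2, a factor that mostly competes with the activating Irf1 at the same sites, had the largest called difference of the 7 at both stages. Its promoter window, chr8:46739495-46739794 on the plus strand, is shown because it held both motifs. Capitals mark an ISRE match and, downstream of it, a GAS match.
Irf2: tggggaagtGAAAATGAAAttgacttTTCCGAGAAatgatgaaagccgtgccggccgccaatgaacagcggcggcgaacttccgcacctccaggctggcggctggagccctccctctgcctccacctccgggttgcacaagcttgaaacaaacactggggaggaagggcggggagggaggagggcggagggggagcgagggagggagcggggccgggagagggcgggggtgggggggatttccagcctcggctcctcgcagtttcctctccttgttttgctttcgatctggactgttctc
Irf2 had log2 signals of 8.68, 8.26 and 8.41 at E15.5, 9.41, 9.93 and 9.60 at P5 and 10.25, 10.10 and 10.001 at P10. No stage overlapped another, and P10 was the highest. The difference was 1.20 ± 0.15 at P5 (2.29-fold higher, adjusted p = 0.000372) and 1.67 ± 0.15 at P10 (3.18-fold higher, adjusted p = 3.78e-05), while P10 minus P5 was 0.47 ± 0.15 and not called (adjusted p = 0.131).

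Irf3, the factor activated by cytosolic nucleic acid sensors, rose by 0.40 ± 0.093 at P5 and 0.50 ± 0.093 at P10. In a fit added once the data had been seen, with P5 array 1 as the lone P5 array, its P5 difference was 0.22 and not called (adjusted p = 0.18). Stat2, a transcription factor of the type I response, had 7.55, 7.69 and 7.33 at E15.5, 7.99, 8.61 and 7.77 at P5 and 8.86, 8.66 and 8.72 at P10. All P10 arrays lay above all P5 arrays, and P5 array 2 lay closest to them. Stat2 rose by 1.23 ± 0.20 at P10 (2.34-fold, adjusted p = 0.00124). Its P5 call (0.60 ± 0.20, adjusted p = 0.0479) was the weakest in the list. It ended in 8 of the 9 fits that left out 1 array, that without P5 array 3 being the exception (adjusted p from 0.0596 to 0.15 in the 8). The difference was 0.35 in the fit that left out P5 array 2.

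Irf8, a factor of myeloid cells that also answers interferon gamma, had 7.09, 6.88 and 6.93 at E15.5, 7.51, 8.65 and 7.60 at P5 and 7.67, 7.50 and 7.77 at P10. Both postnatal stages lay above E15.5. The P5 difference was 0.95 ± 0.27 with all arrays (adjusted p = 0.0242) and 0.58 ± 0.10 without P5 array 2 (adjusted p = 0.00351), and the call ended when any 1 of the 3 E15.5 arrays was left out (adjusted p from 0.0505 to 0.071). The P10 difference, 0.67 ± 0.27, was not called with all arrays (adjusted p = 0.0837) and was called without P5 array 2 (adjusted p = 0.000677). Irf7, which amplifies type I interferon production, had 6.54, 6.18 and 5.94 at E15.5, 6.49, 8.60 and 6.45 at P5 and 6.81, 7.09 and 6.63 at P10. Of the P5 arrays only array 2 stood above the E15.5 range, and the P5 difference of 0.96 ± 0.52 was not called. Without that array it was 0.25 ± 0.19, not called either. At P10 Irf7 differed by 0.62 from E15.5, with a call only when P5 arrays were left out or only those stages were fitted (adjusted p = 0.407 with all arrays and 0.0223 without P5 array 2). Irf9 differed by 0.53 ± 0.25 at P5 (0.26 without P5 array 2) and 0.31 ± 0.25 at P10, not called. Irf1 differed by 0.51 ± 0.41 at P5, with the sign turned without P5 array 2 (-0.042), and by 0.18 ± 0.41 at P10, not called, and its other probe set gave -0.54 and -0.71, not called either.

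Among the 14 effectors, 6 rose at P5 and 5 at P10 against E15.5 (42.9% and 35.7%, beside 17.9% and 20.1% of all genes), and 0 fell. The ubiquitin ligase gene Dtx3l and its binding partner Parp9, a poly-ADP-ribose polymerase family member, had the largest differences among them. The Dtx3l window, chr16:35938978-35939277 on the minus strand, is shown as that of the effector with the largest difference. It held neither motif and so has no capitals.
Dtx3l: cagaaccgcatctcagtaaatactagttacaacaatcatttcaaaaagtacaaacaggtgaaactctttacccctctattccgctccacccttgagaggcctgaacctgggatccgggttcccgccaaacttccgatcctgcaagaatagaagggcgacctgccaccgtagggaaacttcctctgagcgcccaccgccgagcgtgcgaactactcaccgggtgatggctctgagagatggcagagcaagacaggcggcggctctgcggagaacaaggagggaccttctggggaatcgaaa
Dtx3l had log2 signals of 6.34, 6.57 and 6.86 at E15.5, 9.27, 9.52 and 9.40 at P5 and 9.40, 9.59 and 9.23 at P10. The P5 and P10 arrays overlapped each other and lay far above E15.5. It rose by 2.81 ± 0.15 at P5 (7.01-fold, adjusted p = 1.97e-06) and 2.82 ± 0.15 at P10 (7.05-fold, adjusted p = 1.27e-06). Parp9 had 7.35, 6.83 and 7.12 at E15.5, 9.03, 9.40 and 9.51 at P5 and 9.18, 9.59 and 9.23 at P10, and rose by 2.21 ± 0.18 (4.64-fold) and 2.23 ± 0.18 (4.69-fold). Neither was raised on P5 array 2, with deviations of 0.18 and 0.13.

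Parp14, another member of the Parp family, lies beside Dtx3l and Parp9 on chromosome 16. Its log2 signals were 6.59, 6.35 and 6.46 at E15.5, 6.82, 8.36 and 7.04 at P5 and 7.36, 7.60 and 7.31 at P10. All postnatal arrays lay above E15.5, with P5 array 2 the highest. The differences of 0.94 ± 0.35 at P5 (adjusted p = 0.0694) and 0.96 ± 0.35 at P10 (adjusted p = 0.0608) were not called with all arrays. Without P5 array 2 they were 0.46 ± 0.12 (adjusted p = 0.0229) and 0.96 ± 0.11 (adjusted p = 0.000271), both called, and both were also called without P5 array 1 (adjusted p = 0.0267 and 0.0398).

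Usp18, Ifih1 and Trim25 rose at both postnatal stages. Usp18, which removes Isg15 from proteins and dampens type I receptor signalling, had 7.40, 6.94 and 7.40 at E15.5, 8.50, 9.56 and 8.48 at P5 and 9.08, 9.19 and 9.20 at P10. It rose by 1.60 ± 0.27 at P5 (3.03-fold, adjusted p = 0.00196) and 1.91 ± 0.27 at P10 (3.76-fold, adjusted p = 0.00058). P5 arrays 1 and 3 lay below all P10 arrays and P5 array 2 above them, and without P5 array 2 the P5 difference was 1.25 ± 0.14. Ifih1, the sensor of long double-stranded RNA also called Mda5, rose by 1.51 ± 0.23 (2.85-fold, and 1.30 ± 0.21 without P5 array 2) and 1.76 ± 0.23 (3.40-fold). Trim25, a ubiquitin ligase that activates the RNA sensor Rig-I, rose by 0.84 ± 0.10 and 0.78 ± 0.10.

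Of the Ifit genes, whose proteins bind viral RNA, Ifit1 alone was called with all arrays, and only at P5. Promoters of Ifit1, chr19:34640639-34640938 on the plus strand, and of Gbp3, chr3:142559794-142560093 on the plus strand, are shown because each holds 2 ISRE matches close to its start site, in capitals (found on the opposite strand, so printed as the reverse complement).
Ifit1: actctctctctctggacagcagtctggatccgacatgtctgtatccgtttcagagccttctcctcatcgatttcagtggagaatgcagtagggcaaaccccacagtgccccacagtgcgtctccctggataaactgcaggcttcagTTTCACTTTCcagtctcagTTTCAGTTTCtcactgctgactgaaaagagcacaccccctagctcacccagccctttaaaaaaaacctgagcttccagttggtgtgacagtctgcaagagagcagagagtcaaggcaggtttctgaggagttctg
Gbp3: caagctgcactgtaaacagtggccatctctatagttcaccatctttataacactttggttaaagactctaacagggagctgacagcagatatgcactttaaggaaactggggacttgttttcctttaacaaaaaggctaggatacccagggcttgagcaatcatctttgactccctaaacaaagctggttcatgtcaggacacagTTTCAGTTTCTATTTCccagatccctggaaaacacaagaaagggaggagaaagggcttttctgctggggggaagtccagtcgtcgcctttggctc
Ifit1 had log2 signals of 6.69, 6.197 and 6.05 at E15.5, 7.33, 9.25 and 7.59 at P5 and 6.94, 8.06 and 8.18 at P10. Every postnatal array lay above the E15.5 arrays, with P5 array 2 the highest and P10 array 1 the lowest. Its P5 difference of 1.74 ± 0.52 (3.35-fold, adjusted p = 0.0306) was 1.15 ± 0.37 without P5 array 2 and then not called (adjusted p = 0.0529), and the call also ended without E15.5 array 2 or 3 (adjusted p up to 0.0947). At P10 it differed by 1.41 ± 0.52 (adjusted p = 0.0643), and was called without P5 array 2 (adjusted p = 0.0119) or without P10 array 1 (1.81, adjusted p = 0.0337).

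Ifit2 had 6.17, 8.60 and 6.63 at P5, against 6.83, 6.70 and 7.33 at E15.5, so P5 array 2 lay above the E15.5 range and the other P5 arrays below it. It was called at neither stage (0.18 ± 0.54 at P5 and -0.37 ± 0.54 at P10). Without P5 array 2 the P5 difference turned to -0.55 ± 0.21 (adjusted p = 0.094). Ifit3, its neighbour on chromosome 19, differed by 1.19 ± 0.48 at P5 (adjusted p = 0.0883) and 0.88 ± 0.48 at P10 (adjusted p = 0.194). The P5 difference was 0.59 ± 0.27 without P5 array 2 (adjusted p = 0.147) and 1.61 without P5 array 1 (adjusted p = 0.0297, called). The P10 difference was called without P5 array 2 (adjusted p = 0.0225). How far the probes tell Ifit3 from its near copy Ifit3b was not tested.

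Gbp3, a guanylate-binding GTPase of the response to interferon gamma, had log2 signals of 6.62, 6.12 and 6.44 at E15.5, 6.58, 10.42 and 7.48 at P5 and 6.52, 6.63 and 6.56 at P10. P5 array 2 stood far above the rest, P5 array 3 was next, and the other 7 arrays overlapped. The P5 difference was 1.77 ± 0.82 with all arrays (adjusted p = 0.136) and 0.64 ± 0.26 without that array (adjusted p = 0.104), and it was called only when P5 array 1 was left out (2.56, adjusted p = 0.0304). Bst2, the tetherin that holds virions at the surface, had 8.80, 10.46 and 8.97 at P5, against 9.27, 8.77 and 8.83 at E15.5, and was not called. Its P5 difference was 0.46 ± 0.39 with all arrays and -0.067 ± 0.17 without P5 array 2. At P10 it differed by 0.48 ± 0.39, called only without P5 array 2 (adjusted p = 0.0375). Rsad2, the viperin gene, differed by 0.24 ± 0.16 at P5 (0.032 without P5 array 2) and -0.044 ± 0.16 at P10, not called. Mx1 and Mx2 encode antiviral GTPases. Mx1 lay at 4.70 to 4.77 on all 9 arrays, under percentile 30 of genes at each stage, and Mx2 averaged 5.80, 5.66 and 6.19 at E15.5, P5 and P10, and neither was called.

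In class I presentation, the catalytic subunits of the immunoproteasome rose at both postnatal stages, and Psmb8 and Psmb9 had the 2 largest differences of all 35 genes. Psmb8, Psmb9 and Psmb10 replace the standard subunits Psmb5, Psmb6 and Psmb7 in the proteasome of interferon-treated and immune cells and change which peptides are cut. The promoter of Psmb8, chr17:34197945-34198244 on the plus strand, and that of Psmb9, chr17:34187281-34187580 on the minus strand, are shown because of the size of these differences. The capitals in Psmb8 mark a GAS match, and Psmb9 held neither motif.
Psmb8: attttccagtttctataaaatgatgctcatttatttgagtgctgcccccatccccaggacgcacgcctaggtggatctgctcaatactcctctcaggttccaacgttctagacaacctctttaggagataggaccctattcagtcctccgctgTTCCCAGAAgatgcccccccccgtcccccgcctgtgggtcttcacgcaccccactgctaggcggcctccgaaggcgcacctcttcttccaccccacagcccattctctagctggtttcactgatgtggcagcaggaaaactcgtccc
Psmb9: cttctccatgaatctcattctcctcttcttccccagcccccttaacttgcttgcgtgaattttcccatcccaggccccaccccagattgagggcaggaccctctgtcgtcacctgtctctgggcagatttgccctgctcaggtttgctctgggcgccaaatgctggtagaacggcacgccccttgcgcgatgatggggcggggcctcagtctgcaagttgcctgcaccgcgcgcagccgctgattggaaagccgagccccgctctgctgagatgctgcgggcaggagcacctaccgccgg
Psmb8 had log2 signals of 6.28, 6.26 and 6.45 at E15.5, 10.29, 11.69 and 10.30 at P5 and 10.04, 10.07 and 10.15 at P10. All 6 postnatal arrays lay more than 3 log2 units above E15.5. It rose by 4.43 ± 0.33 at P5 (21.5-fold, adjusted p = 1.64e-05) and 3.75 ± 0.33 at P10 (13.5-fold, adjusted p = 3.01e-05). Without P5 array 2 the P5 difference was 3.96 ± 0.077. Psmb9 had 8.01, 7.996 and 7.57 at E15.5, 11.14, 12.90 and 11.80 at P5 and 11.45, 11.61 and 11.56 at P10. It rose by 4.09 ± 0.38 (17.0-fold, adjusted p = 5.42e-05) and 3.68 ± 0.38 (12.8-fold, adjusted p = 7.26e-05), and by 3.61 ± 0.21 at P5 without P5 array 2.

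Psmb10 had 9.54, 9.23 and 9.19 at E15.5, 10.92, 11.98 and 10.92 at P5 and 10.92, 11.08 and 11.07 at P10, and rose by 1.96 ± 0.27 (3.88-fold, and 1.60 ± 0.11 without P5 array 2) at P5 and 1.70 ± 0.27 (3.25-fold) at P10. All 3 subunits were highest on P5 array 2, and without it they differed by -0.21, 0.071 and 0.10 between P10 and P5, not called. The standard subunits rose too. Psmb5 rose by 0.30 ± 0.069 at P5 and 0.47 ± 0.069 at P10, Psmb6 by 0.46 ± 0.087 and 0.60 ± 0.087, and Psmb7 by 0.40 ± 0.089 and 0.65 ± 0.089. In the whole standard core, 11 of 14 genes were called higher at P5 and 13 of 14 at P10, and 0 lower. These are 78.6% and 92.9%, beside 17.9% and 20.1% of all genes, with median differences of 0.42 and 0.53. The sizes of the changes in the 2 kinds of subunit were not tested against each other.

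**Figure D4:**
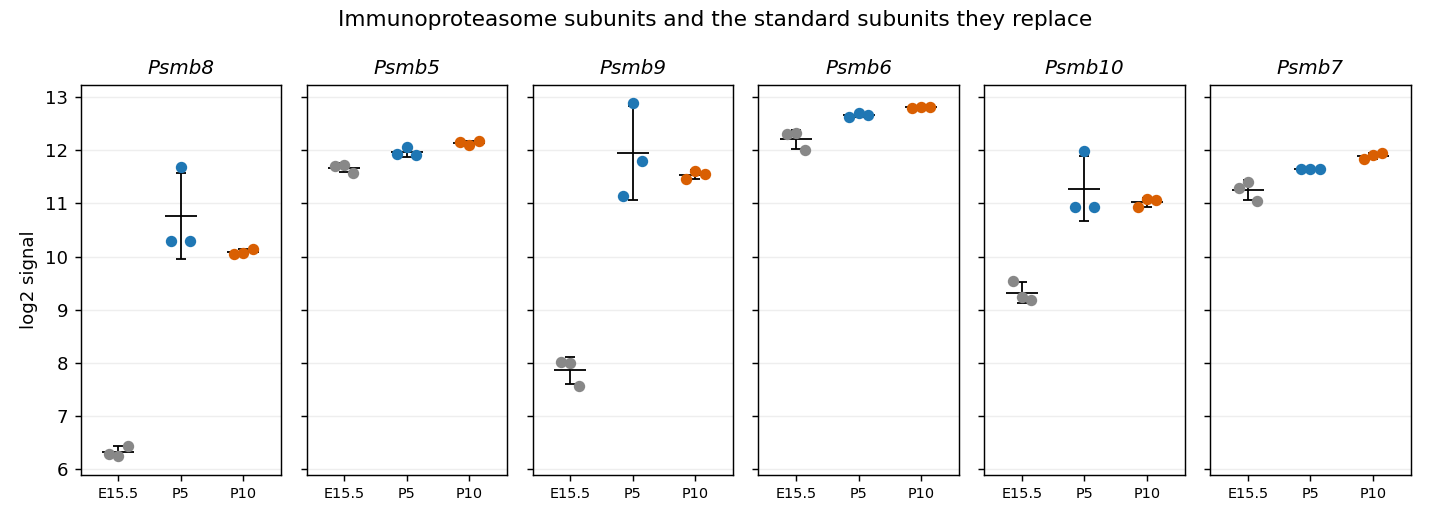
Log2 signals of the immunoproteasome subunits Psmb8, Psmb9 and Psmb10, each beside the standard subunit it replaces, on 3 arrays at E15.5 (grey), P5 (blue) and P10 (orange). Horizontal lines are means and bars the SD, and the immunoproteasome subunits jump between E15.5 and P5 by 4.43, 4.09 and 1.96 while the standard ones move by 0.30, 0.46 and 0.40.

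Psmb9 and Tap1 are divergent neighbours on chromosome 17 whose promoter windows share 275 of 300 bases, and Psmb8 and Tap2 follow them, with no other coding gene between these 4 in the RefSeq table. At P5, Psmb9, Psmb8 and Tap2 were called higher with all arrays and Tap1 was not. Tap1, a subunit of the peptide transporter, had log2 signals of 6.28, 6.27 and 6.38 at E15.5, 6.83, 7.96 and 6.62 at P5 and 6.37, 6.56 and 6.44 at P10. The P5 arrays lay above E15.5, and the P10 arrays overlapped it. Its P5 difference of 0.82 ± 0.30 missed the threshold with all arrays (adjusted p = 0.0627) and was 0.41 ± 0.091 and called without P5 array 2 (adjusted p = 0.0108), or 1.08 and called without P5 array 3 (adjusted p = 0.0208). At P10 it differed by 0.15 ± 0.30, not called. Tap2, its partner, had 6.22, 6.15 and 6.15 at E15.5, 6.69, 6.92 and 6.58 at P5 and 6.40, 6.36 and 6.41 at P10. It rose by 0.56 ± 0.086 at P5 (adjusted p = 0.0011), while 0.22 ± 0.086 at P10 was not called with all arrays (adjusted p = 0.0838) and was called without P5 array 2 (adjusted p = 0.0206) or P5 array 3 (adjusted p = 0.0429). P10 minus P5 was -0.34 ± 0.086 for Tap2 (adjusted p = 0.0615), and leaving out P5 array 3 gave a call (-0.42, adjusted p = 0.0246).

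Tapbp, the tapasin that loads peptide onto class I, had 7.72, 7.74 and 7.44 at E15.5, 8.04, 9.08 and 8.40 at P5 and 7.76, 7.35 and 7.66 at P10. Its P5 arrays lay above both other stages, which overlapped. It rose at P5 by 0.87 ± 0.24 (adjusted p = 0.0228), by 0.59 ± 0.17 without P5 array 2 (adjusted p = 0.0311), and the call ended without E15.5 array 1 or 3 (adjusted p from 0.0515 to 0.0799). At P10 it differed from E15.5 by -0.046 ± 0.24 and from P5 by -0.92 ± 0.24 (adjusted p = 0.0726), the second called without P5 array 1 (-1.15, adjusted p = 0.0337). B2m, the constant light chain of class I, is shown as the case of a promoter with an ISRE match beside a level that did not pass, at chr2:122147437-122147736 on the plus strand, with the match in capitals.
B2m: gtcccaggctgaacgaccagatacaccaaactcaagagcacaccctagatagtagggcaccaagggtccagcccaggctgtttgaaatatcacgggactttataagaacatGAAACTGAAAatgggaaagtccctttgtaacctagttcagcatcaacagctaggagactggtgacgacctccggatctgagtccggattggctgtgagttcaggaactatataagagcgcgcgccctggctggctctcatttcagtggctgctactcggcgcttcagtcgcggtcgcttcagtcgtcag
B2m lay between 12.12 and 12.53 on all 9 arrays, and its mean stood at percentile 98.7 to 99.1 of genes, and differed by 0.15 ± 0.093 at P5 (0.056 without P5 array 2) and 0.041 ± 0.093 at P10, not called.

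Nlrc5, the transactivator of class I genes, gave a direction that depended on the probe set. The one with the highest mean, which stands for the gene in the counts above, had a mean of 9.84 ± 0.095 on the E15.5 arrays, 9.62 ± 0.044 on the P5 arrays and 9.47 ± 0.12 on the P10 arrays (SD, n = 3 each). It differed by -0.22 ± 0.078 at P5 (adjusted p = 0.0613) and -0.36 ± 0.078 at P10 (adjusted p = 0.00543). The P5 difference was called without E15.5 array 1 or P10 array 2 (adjusted p from 0.0385 to 0.0498). Over all 19 probe sets, 7 were called higher and 0 lower at P5, with differences from -0.22 to 0.98 and a median of 0.31. At P10, 6 were higher and 1, the one just named, was lower, from -0.36 to 0.98 with a median of 0.26. Of 21789 probe sets with 1 gene symbol, 35.6% were called either way at P5 and 38.8% at P10. Of the 7 called higher at P5, the one with the largest difference had 6.53, 7.69 and 6.52 on P5 arrays 1, 2 and 3. On the E15.5 arrays it had 5.87, 5.89 and 6.05. Another of the 7 averaged 4.24 at E15.5 and 4.80 at P5, under percentile 30 of genes. The part of P5 array 2 in these calls was not tested. Between P10 and P5, 0 of the 19 were called, where 5.4% of probe sets were. The mean of the 19 gave 0.38 at P5 (adjusted p = 0.0224) and 0.33 at P10 (adjusted p = 0.0391), so the call for Nlrc5 turns with the probe set and no direction is given for the gene.

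**Figure D5:**
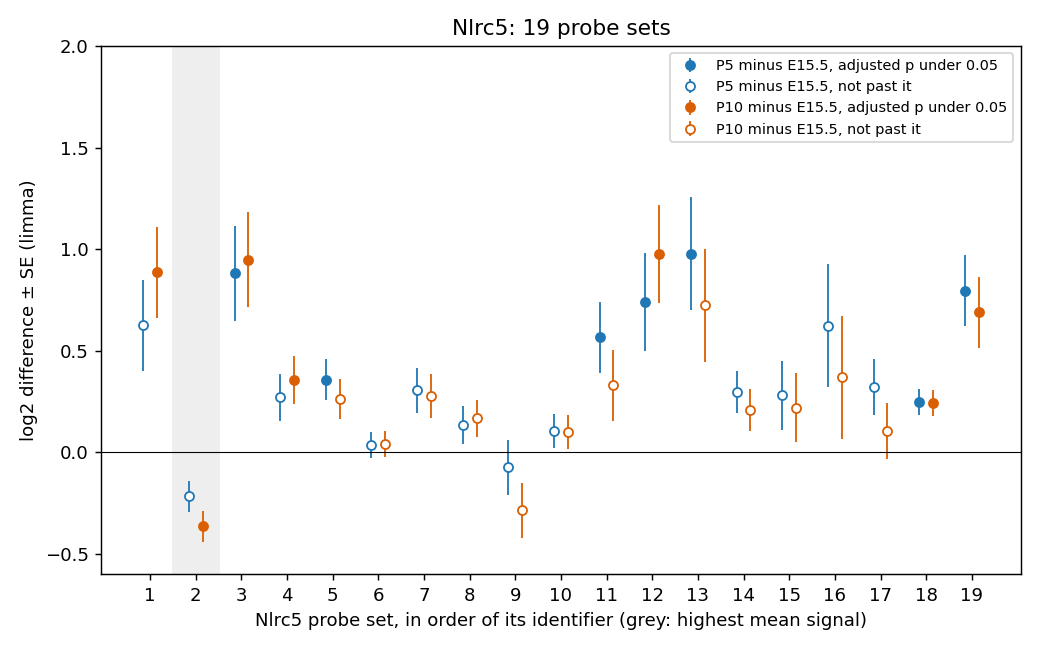
Differences of P5 minus E15.5 (blue) and P10 minus E15.5 (orange) with standard errors from limma for the 19 probe sets annotated to Nlrc5, 3 arrays a stage, filled where the adjusted p was under 0.05. The shaded probe set has the highest mean and is the only one with a called decrease (-0.36 at P10), while 7 probe sets at P5 and 6 at P10 were called higher.

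Class II presentation held no call with all arrays. Cd74, the invariant chain that guides class II molecules to their peptides, had log2 signals of 5.05, 5.17 and 4.96 at E15.5, 5.41, 9.84 and 5.46 at P5 and 5.22, 5.11 and 5.22 at P10. P5 array 2 stood 4.41 above the mean of the other P5 arrays. Those 2 lay above the E15.5 arrays but, like all the E15.5 and P10 arrays, under percentile 30 of genes (5.66 to 5.70), so all Cd74 values other than that of P5 array 2 were dim. The P5 difference was 1.84 ± 1.03 with all arrays (adjusted p = 0.213) and 0.37 ± 0.081 without P5 array 2, where it was called (adjusted p = 0.00977) between dim values. At E15.5 and P10 the Cd74 mean lay under percentile 30 of genes. Ciita, the master regulator of class II genes, had 6.11, 6.48 and 6.00 at P5, against 5.82, 6.04 and 6.04 at E15.5, and differed by 0.23 ± 0.13 at P5 (0.085 without P5 array 2) and 0.075 ± 0.13 at P10, not called.

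Other genes of these pathways were counted from lists chosen with earlier results of these data known. Of 69 other interferon-stimulated genes, 20 were higher and 2 lower at P5 and 16 higher and 3 lower at P10 against E15.5, with median differences of 0.31 and 0.16. These are 29.0% and 2.9% at P5, beside 17.9% and 17.7% of all genes, and 23.2% and 4.35% at P10, beside 20.1% and 18.6%, so with all arrays the share higher at P10 was near that of all genes. Without P5 array 2 the counts were 21 and 3 at P5, with a median of 0.11, and 22 and 7 at P10. In that fit 16.3% and 15.9% of all genes were higher and lower at P5, and 20.2% and 18.7% at P10. It changes no P10 or E15.5 value, so the P10 counts moved through the estimated spread. Iigp1, an immunity-related GTPase, rose by 4.22 ± 0.23 and 3.92 ± 0.23, Lgals9, the galectin-9 gene, by 2.16 ± 0.080 and 2.34 ± 0.080, Ifi35 by 1.67 ± 0.12 and 1.69 ± 0.12, and Trim14, an adaptor of antiviral signalling, by 1.78 ± 0.17 and 2.52 ± 0.17. On P5 array 2, 17 of these 69 genes were more than 2-fold above the other P5 arrays and 0 more than 2-fold below.

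Sting1 fell and Mavs rose at both postnatal stages. In the list of 33 signalling and sensing genes, 9 were higher and 5 lower at P5 and 10 higher and 4 lower at P10. The 42.4% called at each stage lay near the 35.6% and 38.7% of all genes, and 1 was over 2-fold up on P5 array 2. Sting1, the adaptor of cytosolic DNA sensing, had 9.73, 9.02 and 8.71 at E15.5, 6.68, 6.90 and 7.06 at P5 and 6.33, 6.42 and 6.42 at P10, and fell by 2.28 ± 0.23 and 2.76 ± 0.23. Mavs, the adaptor of RNA sensing downstream of Ifih1, had 8.06, 8.16 and 7.91 at E15.5, 9.26, 9.86 and 9.66 at P5 and 9.97, 10.30 and 9.94 at P10, and rose by 1.55 ± 0.16 and 2.03 ± 0.16. Both moved on all 6 postnatal arrays. Zbp1, a sensor of nucleic acids in the Z form, rose by 3.74 ± 0.44 at P5 (3.14 ± 0.15 without P5 array 2) and 3.04 ± 0.44 at P10, and the phosphatase gene Ptpn6 by 1.12 ± 0.12 and 1.25 ± 0.12.

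Chaperones that class I molecules share with other glycoproteins fell. Of 18 other class I presentation genes, 7 were higher and 3 lower at P5 (38.9% and 16.7%, beside 17.9% and 17.7% of all genes). At P10, 3 were higher and 4 lower (16.7% and 22.2%, beside 20.1% and 18.6%). Apart from the share higher at P5, these lay near the shares of all genes. The 3 lower at P5 were the chaperones Canx (-1.12 ± 0.075) and Calr (-1.16 ± 0.10) and the disulphide isomerase Pdia3 (-1.52 ± 0.15), which fell further at P10 (-1.74, -1.86 and -2.23). The same 3 made up the calls of this list at P10 against P5, at -0.62 to -0.71 (16.7% lower, beside 2.89% of all genes). Without P5 array 2 the call of Pdia3 ended (-0.70, adjusted p = 0.0823). Psme1, a subunit of the interferon-inducible proteasome activator, rose by 1.02 ± 0.15 at P5 and 0.71 ± 0.15 at P10. Of 18 other class II genes, 1 was higher and 0 lower at P5 (5.56% called, beside 35.6% of all genes) and 2 were higher and 2 lower at P10 (22.2%, beside 38.7%). Rfxap, a part of the complex that binds class II promoters, rose by 0.63 ± 0.092 and 0.59 ± 0.092, the lysosomal reductase Ifi30 rose at P10 by 0.49 ± 0.066, and the cathepsins Ctsl and Ctsb fell at P10 by 0.78 ± 0.13 and 0.87 ± 0.15.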

How the data were processed

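RNA of 9 samples, 3 a stage, was measured on Affymetrix arrays. The deposited values are log2 signals that the authors made with RMA in Affymetrix Expression Console, with Transcriptome Analysis Console 2.0 also named, per the submitters' processing notes. For the probe annotation, no source used here states a genome build. Of 35556 probe sets, 21789 carry 1 gene symbol, 1621 carry several and 12146 have none listed, and symbols were updated by Entrez identifier for 21698. Each of 19938 genes was read from its probe set with the highest mean, and no deposited sample column was left unused.

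From these values, limma 3.58.1 (lmFit and eBayes, with statmod 1.5.0, in R 4.3.3) was fitted over all 9 arrays with stage as the only term, and p-values were adjusted by Benjamini-Hochberg over all genes, with 0.05 as the threshold for a call. Errors beside differences are standard errors, with n = 3 arrays a stage. Tables and figures were made in Python 3.11.15 with pandas 2.3.3 and matplotlib 3.10.9, and the fit was tested on simulated data. All 35 members were eligible to be named, and of each wider list the genes with the smallest adjusted p in a comparison. Alternatives covered renormalization, centring, the filter and floor on dim genes, the choice of probe set, array weights, the stages fitted, a replicate block and leaving out arrays. Array numbers did not pair the samples, since the correlations of same-numbered deviations ran from -0.0795 to 0.0687. Promoters are RefSeq sequences of build GRCm38.p6. The members and lists were chosen with earlier results of these data known.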

Additional observations from a re-analysis of the deposited data

How the results depend on the processing

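Each of 105 differences (35 genes, 3 comparisons) was recomputed under 22 alternatives (21 for Mx1, which the filter on dim genes removed), 2 of them chosen after seeing the data. Of 34 called differences, 26 kept their call and direction under every alternative, and 7 lost the call under at least 1. The other, Nlrc5 at P10 against E15.5, reversed under 2. It was then called for the mean of its probe sets, and not called for the probe set with the largest SD (adjusted p = 0.0736). Of the uncalled differences, 22 gained a call under at least 1. Nlrc5 turned sign with the probe set: at P5 against E15.5 it was 0.383 for the mean of its probe sets and 0.978 for the probe set with the largest SD, and at P10 against E15.5 0.329 and 0.723. Quantile normalization gave 18 members higher and 4 lower at P5 and 17 higher and 5 lower at P10 against E15.5. Of all 19938 genes, 6132 and 7858 were then higher, against 3560 and 3998 as deposited. This normalization moved the median of all genes to 0.117 and 0.15, and the share of all called genes that were higher to 64.1% and 69.4%, against 50.2% and 51.8% as deposited. Fitting only the stages compared gave 17 higher at P10 against E15.5, where 4158 of all 19938 genes were higher. For P10 against P5, 2 members were lower with only genes above percentile 30 and with array weights. In those fits 1287 of 13956 and 1294 of 19938 genes were called either way. Leaving out 1 array at a time gave 11 to 17 members higher and 2 to 3 lower at P5 against E15.5, 11 to 18 higher (18 without P5 array 2) and 4 to 5 lower at P10 against E15.5, and 0 to 2 higher and 0 to 2 lower at P10 against P5. Of all 19938 genes, 3007 to 3689, 3448 to 4101 and 250 to 802 were higher in these 3 comparisons. With the replicate number as a block the counts stayed at 15 and 2, 11 and 5, and 0 and 1, and the numbers did not pair the samples. The cause of these changes was not tested. With 3 arrays a stage, precision is limited by their number, and genes near the floor of the scale, such as Mx1, give little signal over background.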
